A study of Homo sapiens with 28 samples.

Results

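The LPS response of control U937 clones was read from 6 libraries of 3 clones, out of 28 libraries of 14 clones in the series. U937 is a human monocytic cell line, and the control clones (CTR) had been targeted with non-specific guide RNAs. The libraries labelled CTR-1, CTR-2 and CTR-3 with LPS were set against the untreated library of the same number. The response is described over all genes that passed a count filter set on the 28 libraries of the series. Some of these genes had few counts in the control libraries, so the shares called are not over control-expressed genes alone. The rest of the series holds 3 clones labelled as p65 knockouts and 2 clones each labelled as p50, p52, cREL and RELB knockouts. Every clone of the series was sequenced once untreated and once with lipopolysaccharide (LPS) at 500 ng/ml, and the labels give 6 h as the time for both. Control clones 1 and 3 belong to sample batch C and clone 2 to batch B, so what belongs to clone 2 and what belongs to its batch cannot be told apart. All 3 clones come from 1 established line, the labels name no agent that would differentiate it, and the clones have been through CRISPR targeting, so they are neither the parental line nor primary monocytes.

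LPS is the glycolipid that coats Gram-negative bacteria. On myeloid cells it is bound by CD14 and the receptor complex of TLR4 and MD-2, whose adaptors MyD88 and TRIF activate the transcription factor family NF-kB, MAP kinases and interferon regulatory factors. In monocytes and macrophages the response starts with cytokine, chemokine and immediate early genes, goes on with secreted interferon acting back on the cells, and brings in inhibitors that end it; glucose, lipid and amino acid metabolism are known to be rewired alongside.

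The control libraries held 16033200 to 18869928 estimated counts, with 22783 to 24458 genes above 0, and their log CPM (counts scaled to library size) correlated at 0.948 to 0.961 between replicates. Of the 10 markers listed for the U937 line, 9 stood above 1 TPM (the authors' unit scaled by gene length and library size), among them CD33, LYZ and the granule protease gene ELANE, while MPO was listed at 0 in all 6 libraries. CD3D, CD3E and CD8A of T cells, MS4A1 of B cells, PF4 and GP9 of platelets and KRT18 and KRT19 of epithelia were listed at 0. Since MPO is at 0 beside high ELANE, a listed 0 may also be a gene that was not quantified. The 7 T and NK cell markers summed to 274 to 527 TPM untreated and 317 to 479 TPM with LPS, with NKG7 as the main part. In bulk RNA, fewer cells that express a gene and less of its RNA per cell cannot be told apart. The libraries labelled p65 replicate 1, which enter the fit through the shared estimate of spread, held RELA messenger RNA at 43.7 and 52.1 TPM against 3.20 to 8.19 TPM in the other p65 libraries and 23.2 to 38.3 TPM in the control libraries, so its RELA level goes against the label; whether it lacks the protein was not tested. Results are given as log2 fold ± SE from an edgeR model that pairs the 2 libraries of a clone, and a gene is called where the Benjamini-Hochberg adjusted p is under 0.05 over all 18624 genes tested. Levels are TMM-scaled CPM in the order of clones 1, 2 and 3.

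edgeR called 236 of 18624 genes (1.27%) with LPS, of which 225 were higher (1.21%) and 11 lower (0.0591%). The raised genes moved further: their median log2 fold was 1.03 against −0.63 for the lowered genes, 116 rose over 2-fold, 54 over 4-fold and 15 over 16-fold, and only 3 fell by over 2-fold. Every called gene moved in the same direction in 3 of 3 clones, in some clones only slightly. A paired test favours such genes, so this adds no support to the calls. The LPS libraries lay wholly above the untreated ones for 149 of the 225 raised genes and wholly below for 3 of the 11 lowered genes, against 7.37% of all genes tested whose groups did not overlap in either direction. Raised genes took 1.89 to 2.28% of all counts untreated and 3.75 to 4.19% with LPS, and lowered genes 0.0640 to 0.0884% and 0.0469 to 0.0590%. At an unadjusted p under 0.01 the counts were 517 higher (2.78%) and 119 lower (0.639%). Among the 236, 227 were protein-coding (1.67% of those tested) and 6 were noncoding (0.159% of those tested).

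**Figure D1:**
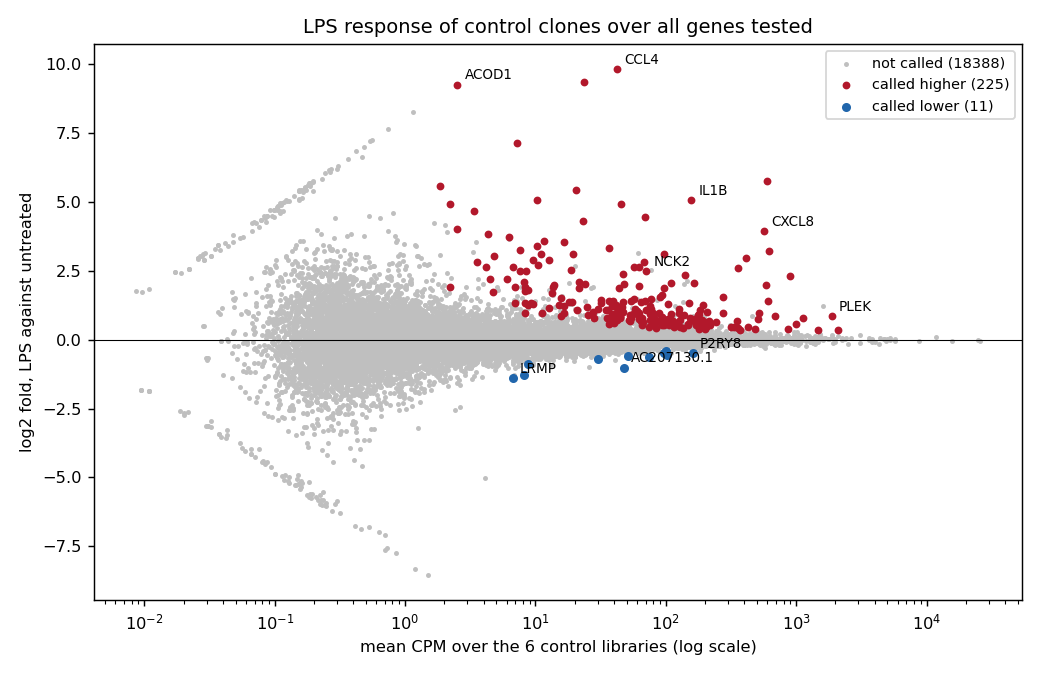
Log2 fold of LPS against untreated control clones (vertical axis) by mean CPM over the 6 libraries (horizontal log axis); each point is 1 of the 18624 genes tested, with 225 called higher in red and 11 called lower in blue. The red points reach far above 0 and the blue points stay close below it; the fans of grey points at the left, and the plotted position of ACOD1, are genes with 0 counts in a group, whose fitted fold depends on the prior count.

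The call rests on pairing by clone. Without the pairing, with batch as a term, edgeR called 76 genes (75 higher, 1 lower), of which 73 were among the 236. With 2 clones in place of 3, the count was 103 without clone 1, 230 without clone 2 and 99 without clone 3, and 79 of the 236 were called in each of these 3 fits. A core of 14 genes was called under every alternative run: CXCL2, IL1B, PTX3, IER3, NFKBIA, NFKBIZ, TNFAIP3, IRAK2, PDE4B, NCK2, EAF1, MFSD2A, SLC2A3 and SLC2A6. Besides secreted and feedback factors this core holds a phosphodiesterase, an adaptor protein, an elongation factor partner and 3 membrane transporters.

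The raised genes were read by the 56 gene lists, which held 2312 of the genes tested. In these lists 136 genes were called higher and 1 lower (5.93% of the listed genes), against 89 higher and 10 lower outside them (0.607%). The lists were chosen with earlier results of these data known, so the higher share inside them is a description and not a test. At least 1 raised gene stood in 38 lists, and 18 lists held no called gene. The highest shares were those of inhibitors of NF-kB (9 of 17), chemokines (10 of 23), NF-kB subunits (2 of 5) and immediate early genes (9 of 25).

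**Figure D2:**
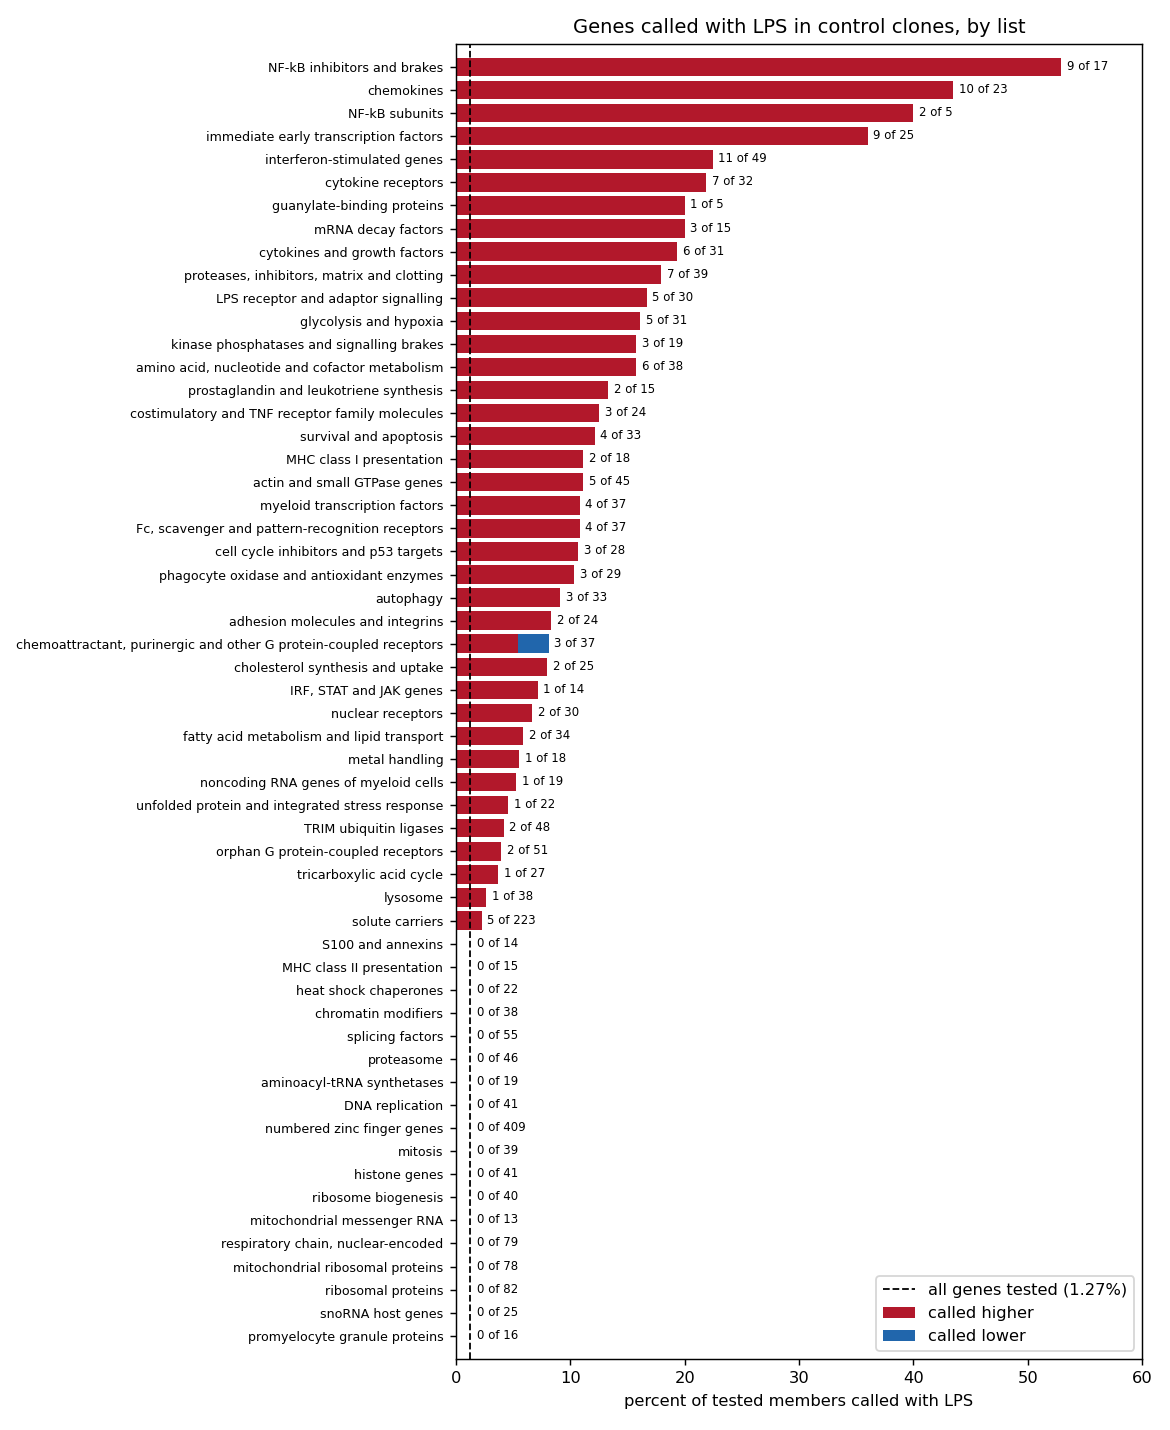
Share of the tested members of each of 56 gene lists that edgeR called with LPS in control clones (bars, red higher and blue lower, counts at the bar ends), beside the 1.27% called among all genes tested (dashed line). Inhibitors of NF-kB and chemokines lead, with 9 of 17 and 10 of 23, and 18 lists stand at 0.

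Genes of the NF-kB system itself were raised, both subunits and inhibitors. Of the 5 subunit genes, NFKB2 and RELB, the pair of the noncanonical pathway, were called. NFKB2 stood at 4.19, 5.47 and 1.5 CPM untreated and 12.1, 11.6 and 15.05 CPM with LPS (log2 fold 1.91 ± 0.37, edgeR adjusted p = 0.0132). For its partner RELB the levels were 5.93, 15.5 and 4.89 CPM untreated and 19.8, 24.8 and 22.8 CPM with LPS (log2 fold 1.52 ± 0.34, edgeR adjusted p = 0.0373). The other subunits had smaller values that did not pass: NFKB1 0.91 ± 0.25 (edgeR adjusted p = 0.124), REL 0.29 ± 0.18 (0.76) and RELA 0.25 ± 0.12 (0.597). MAP3K14, the kinase that feeds the noncanonical pathway and was named after its value was seen, rose by 0.97 ± 0.22 (edgeR adjusted p = 0.0364). Neither subunit was called without pairing (edgeR adjusted p = 0.0844 for NFKB2 and 0.307 for RELB), or without clone 1 or clone 3.

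Of 17 inhibitors and brakes of NF-kB, 9 rose (52.9% against 1.27% of all genes). The list's median log2 fold was 1.18 against 0 for all genes. NFKBIZ, a nuclear inhibitor that also acts as a coactivator, stood at 6.57, 8.01 and 5.35 CPM untreated and 58.5, 72.6 and 69.5 CPM with LPS (log2 fold 3.34 ± 0.27, edgeR adjusted p = 6.55e-06). TNFAIP3, the ubiquitin-editing enzyme A20, had 23.96, 19.6 and 16.8 CPM in the untreated libraries and 162, 157 and 199.6 CPM with LPS (log2 fold 3.11 ± 0.29, edgeR adjusted p = 0.00013). NFKBIA, which holds NF-kB in the cytoplasm, stood at 69.2, 70.8 and 51.4 CPM untreated and 268, 228 and 301 CPM with LPS (log2 fold 2.06 ± 0.24, edgeR adjusted p = 0.000917). In all 3 genes the lowest LPS library stood far above the highest untreated one, and the clones lay close together. TNIP3 (3.83 ± 0.49) and TNIP1 (1.18 ± 0.19), partners of A20, the ubiquitin ligase gene BIRC3 (3.75 ± 0.66), TRAF1 (3.11 ± 0.61), NFKBIE (1.36 ± 0.30) and the deubiquitinase gene CYLD (0.79 ± 0.16) also rose, with edgeR adjusted p from 0.000322 (TNIP3) to 0.0341 (NFKBIE). NFKBIB (0.11 ± 0.20), TNIP2 (0.21 ± 0.30) and BIRC2 (0.23 ± 0.16) did not pass. Unpaired, 7 members were called, and 5, 8 and 4 without clones 1, 2 and 3.

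Promoter sequence is shown for 4 raised genes, because it lets the NF-kB motif be seen beside the response. The 4 were chosen among raised genes whose window holds the NF-kB consensus, so a match in each was fixed beforehand. Their matches therefore do not show how common the motif is, and its share among all raised genes with a promoter is given below. Shown are the 250 bases before the start site on the gene's strand, from RefSeq (GRCh38.p14), at chr4:74099196-74099445 (minus strand) for CXCL2, chr3:101827740-101827989 (plus) for NFKBIZ, chr6:137867009-137867258 (plus) for TNFAIP3 and chr3:52197833-52198082 (plus) for ALAS1; capitals mark matches to the NF-kB consensus on either strand.
CXCL2: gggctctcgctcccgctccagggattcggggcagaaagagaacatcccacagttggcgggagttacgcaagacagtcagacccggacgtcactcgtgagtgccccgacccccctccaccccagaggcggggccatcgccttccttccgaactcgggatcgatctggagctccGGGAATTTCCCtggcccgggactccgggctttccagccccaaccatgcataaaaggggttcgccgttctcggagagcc
NFKBIZ: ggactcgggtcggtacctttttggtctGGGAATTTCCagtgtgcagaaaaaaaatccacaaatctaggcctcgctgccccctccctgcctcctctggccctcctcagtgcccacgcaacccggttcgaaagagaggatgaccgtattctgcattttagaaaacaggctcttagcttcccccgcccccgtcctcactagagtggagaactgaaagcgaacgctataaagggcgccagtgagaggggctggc
TNFAIP3: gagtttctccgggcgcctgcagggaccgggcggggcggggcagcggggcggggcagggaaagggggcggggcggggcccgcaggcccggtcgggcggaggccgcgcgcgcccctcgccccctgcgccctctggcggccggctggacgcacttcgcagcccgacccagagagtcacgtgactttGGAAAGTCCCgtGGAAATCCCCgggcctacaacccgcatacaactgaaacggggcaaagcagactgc
ALAS1: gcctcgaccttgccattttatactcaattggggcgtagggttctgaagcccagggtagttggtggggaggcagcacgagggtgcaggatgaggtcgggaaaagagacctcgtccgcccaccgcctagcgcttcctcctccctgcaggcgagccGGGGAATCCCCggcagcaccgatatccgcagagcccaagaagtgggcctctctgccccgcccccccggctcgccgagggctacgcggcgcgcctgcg
The matches begin 78 bases before the start in CXCL2, 223 in NFKBIZ, 67 and 55 in TNFAIP3 and 97 in ALAS1, where CXCL2 and ALAS1 each hold 2 matches that overlap. CXCL2, NFKBIZ and TNFAIP3 belong to the 14 genes called under every alternative, and ALAS1, described with the metabolic genes, is an enzyme of heme synthesis.

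Over windows that add 50 bases after the start, this consensus was found on either strand in 24.3% of 177 raised genes with a promoter in the table, in 32.5% of the 40 raised over 4-fold and in 12.8% of all 11330 genes matched. For chemokines the share was 41.2% of 17 and for inhibitors of NF-kB 37.5% of 16. The interferon response core GAAANNGAA stood in 70.3% of 37 interferon-stimulated genes, 12.4% of raised genes and 6.85% of all. TATAAA stood in 64.7% of the chemokine promoters and 42.5% of the genes raised over 4-fold, against 6.54% of all. TGANTCA, the AP-1 motif, stood in 15% of the genes raised over 4-fold against 5.08% of all. TGACGTCA, the cyclic AMP response element, stood in 1.13% of raised genes against 3.01% of all. Of 6 lowered genes with a promoter, 2 held the NF-kB consensus. A match describes these letters and was not tested as a site.

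Chemokine genes were among the largest rises. Of 23 tested, 10 rose (43.5% against 1.27% of all genes), with a list median of 3.27. CXCL8, which draws neutrophils, stood at 48.3, 128 and 38.5 CPM untreated and 552, 1784 and 871 CPM with LPS (log2 fold 3.93 ± 0.41, edgeR adjusted p = 0.00152). CCL2, which draws monocytes, had 80.3, 132 and 64.3 CPM in the untreated libraries and 820.2, 368 and 1023 CPM with LPS (log2 fold 2.96 ± 0.54, edgeR adjusted p = 0.0341). CXCL10, an interferon-dependent attractant of T cells, stood at 13.01, 4.57 and 22.2 CPM untreated and 2385, 66.9 and 1061 CPM with LPS (log2 fold 5.77 ± 0.82, edgeR adjusted p = 0.0105). Clone 2 gave the lowest LPS level of CCL2 and CXCL10 and the highest of CXCL8, and the groups of the 3 genes did not overlap. CCL20 (3.27 ± 0.48) and CXCL2 (4.91 ± 0.28) rose as well. CCL3 stood at 2.64, 17.9 and 3.26 CPM untreated and 139, 94.4 and 160.1 CPM with LPS (log2 fold 4.46 ± 0.72, edgeR adjusted p = 0.0168), and for it and CCL3L1 (5.43 ± 0.55) reads may be split between near-identical copies. CCL4 had 4 counts over the untreated libraries and 4229 with LPS, which is a 988-fold ratio (386 to 3629 as its 95% counting interval), and its near copy CCL4L2 had 3 and 2351 counts, a ratio of 733 (250.4 to 3555). CCL8 went from 5 to 686 counts, a ratio of 128 (54.7 to 396). These ratios, and those of low-count genes below, pool the reads of the 3 clones. Their intervals leave out the spread between clones. CXCL11 (3.13 ± 0.82), CCL7 (1.79 ± 0.47) and CCL5 (0.61 ± 0.17) did not pass (edgeR adjusted p = 0.176, 0.124 and 0.149). CCL2 was not called without clone 1 (edgeR adjusted p = 0.273) or clone 3 (0.207), nor CCL3 (0.139 and 0.135), and CXCL10 was not called without clone 3 (0.107).

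Of 31 cytokines and growth factors, 6 rose (19.4% against 1.27% of all genes) and the list median was 1.03. IL1B, interleukin-1 beta, had 6.57, 15.6 and 5.94 CPM in the untreated libraries and 195, 394 and 316 CPM with LPS (log2 fold 5.07 ± 0.29, edgeR adjusted p = 3.95e-06). TNF stood at 7.99, 5.19 and 3.65 CPM untreated and 37.1, 31.2 and 26.8 CPM with LPS (log2 fold 2.55 ± 0.26, edgeR adjusted p = 4.53e-05). IL10, the anti-inflammatory cytokine, stood at 2.899, 0.846 and 0.391 CPM untreated and 9.03, 6.23 and 5.69 CPM with LPS (log2 fold 2.64 ± 0.48, edgeR adjusted p = 0.0076). The LPS levels of IL10 and TNF stayed low in absolute terms beside IL1B, and no library overlapped between groups for the 3 genes. HBEGF, a growth factor for epithelial and smooth muscle cells, rose by 2.00 ± 0.34, and OSM, oncostatin M, by 1.93 ± 0.39 (edgeR adjusted p = 0.00512 and 0.0183). INHBA, the subunit of activin A, had 5 untreated counts and 241 with LPS, a ratio of 45.1 (95% counting interval 19.0 to 140.03). IL32 (0.36 ± 0.29), IL18 (0.59 ± 0.17) and TNFSF13B (0.25 ± 0.30) did not pass. In the prostaglandin list, PTGS2, cyclooxygenase-2, had 0.322, 1.24 and 0.326 CPM in the untreated libraries and 18.5, 20.4 and 20.4 CPM with LPS (log2 fold 5.08 ± 0.45, edgeR adjusted p = 1.08e-05), and the prostaglandin E receptor gene PTGER4 rose by 1.22 ± 0.17 (edgeR adjusted p = 0.000861). Cytokines called numbered 2 without pairing and 4, 4 and 2 without clones 1, 2 and 3.

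Among 30 receptor, adaptor and kinase genes upstream in the pathway, 5 rose (16.7% against 1.27% of all genes), and the list median was 0.25. TLR2, the receptor of bacterial lipoproteins, stood at 2.64, 9.98 and 15.9 CPM untreated and 13.5, 27.03 and 61.05 CPM with LPS (log2 fold 1.88 ± 0.23, edgeR adjusted p = 0.000257); its untreated levels differed between clones and the groups overlapped. IRAK2, a kinase of the MyD88 complex, stood at 35.4, 39.5 and 40.2 CPM untreated and 96.97, 87.9 and 118 CPM with LPS (log2 fold 1.39 ± 0.13, edgeR adjusted p = 2.97e-05). TRAF3 (1.02 ± 0.18), IKBKE (0.75 ± 0.14), a kinase of the interferon branch, and MAP3K8 (1.27 ± 0.28), which drives the ERK kinases, rose too. MYD88 had 273, 143 and 194 CPM in the untreated libraries and 501, 153 and 187 CPM with LPS (log2 fold 0.31 ± 0.14, edgeR adjusted p = 0.549) and did not pass, nor did IRAK1 (0.07 ± 0.09) or TBK1 (0.15 ± 0.12). PIK3AP1, the adaptor BCAP that links Toll-like receptors to phosphoinositide kinase, rose by 0.83 ± 0.11 (edgeR adjusted p = 0.000696), and PIK3R5, a regulatory subunit of phosphoinositide 3-kinase gamma, by 0.94 ± 0.11 (0.000195). For the 30 genes the count was 2 unpaired and 2, 6 and 2 without clones 1, 2 and 3.

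Brakes outside the NF-kB inhibitors were raised in part. Of 19 phosphatases and signalling brakes, 3 rose (15.8% against 1.27% of all genes). DUSP6, the ERK phosphatase, stood at 206, 118 and 94.7 CPM untreated and 368, 271 and 188 CPM with LPS (log2 fold 1.01 ± 0.11, edgeR adjusted p = 0.000121), and its groups overlapped. CISH, a SOCS family protein, rose by 1.28 ± 0.15 and the adaptor gene SH2B3 by 0.67 ± 0.15 (edgeR adjusted p = 0.000195 and 0.0398). Of 15 messenger RNA decay factors 3 rose (20% against 1.27% of all genes). ZC3H12A, the ribonuclease regnase-1, stood at 22.6, 14.1 and 12.5 CPM untreated and 131, 69.4 and 157 CPM with LPS (log2 fold 2.82 ± 0.38, edgeR adjusted p = 0.00369). ZFP36, tristetraprolin, which binds AU-rich elements of cytokine messages, rose by 1.40 ± 0.17 and ZC3H12C by 2.48 ± 0.46 (edgeR adjusted p = 0.000207 and 0.00911). HNRNPD (0.01 ± 0.14), ELAVL1 (−0.22 ± 0.52) and KHSRP (−0.02 ± 0.28), other proteins that bind such elements, did not pass. PDE4B, the phosphodiesterase that breaks down cyclic AMP and lies outside the lists, had 19.00, 20.3 and 36.1 CPM in the untreated libraries and 69.9, 76.8 and 151 CPM with LPS (log2 fold 1.95 ± 0.16, edgeR adjusted p = 4.76e-06), and all 3 clones rose by a like amount (log2 differences 1.87, 1.91 and 2.06). RGS16 (1.13 ± 0.18), which shortens G protein signals, and SAMSN1 (2.04 ± 0.23), an adaptor known as a brake in B cells, rose as well (edgeR adjusted p = 0.00228 and 0.000129).

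Hosts of 2 microRNA groups rose. MIR3142HG, on chromosome 5 and known as the host of miR-146a, which targets IRAK1 and TRAF6, stood at 1.55, 3.38 and 1.96 CPM untreated and 15.6, 15.98 and 28.2 CPM with LPS (log2 fold 3.11 ± 0.49, edgeR adjusted p = 0.00461). MIR222HG, on chromosome X and outside the lists, stood at 4.32, 3.05 and 3.98 CPM untreated and 14.7, 11.9 and 12.1 CPM with LPS (log2 fold 1.78 ± 0.27, edgeR adjusted p = 0.00182). Their mature products are shown to make the shared seed visible; sequences are from RefSeq (GRCh38.p14), 5′ to 3′, with bases 2 to 8 in capitals.
miR-146a-5p: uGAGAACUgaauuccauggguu
miR-221-3p: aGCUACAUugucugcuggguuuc
miR-222-3p: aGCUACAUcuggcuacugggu
They lie at chr5:160485372-160485393 (plus strand), chrX:45746180-45746202 (minus) and chrX:45747036-45747056 (minus). miR-221-3p and miR-222-3p have the same seed, and that of miR-146a-5p differs. The libraries read polyadenylated host transcripts, and mature microRNAs were not measured.

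Interferon-stimulated genes were raised to a different extent in the 3 clones. The fitted log2 fold was positive for 49 of 49, with a median of 1.04, and 11 were called (22.4% against 1.27% of all genes). The median log2 difference was 1.76 in clone 1, 0.22 in clone 2 and 0.76 in clone 3. Clone 1 also started higher: ISG15, a ubiquitin-like modifier, had 60.4, 4.29 and 5.61 CPM in the untreated libraries and 241, 4.36 and 24.5 CPM with LPS (log2 fold 1.48 ± 0.32, edgeR adjusted p = 0.0361). OASL, a sensor protein of the oligoadenylate synthetase family, stood at 43.4, 1.18 and 1.11 CPM untreated and 309, 2.33 and 14.2 CPM with LPS (log2 fold 2.64 ± 0.41, edgeR adjusted p = 0.00369). STAT2, a subunit of the interferon-activated complex, stood at 61.5, 12.97 and 15.1 CPM untreated and 191, 16.7 and 23.8 CPM with LPS (log2 fold 0.91 ± 0.21, edgeR adjusted p = 0.0454). For these 3 genes the untreated library of clone 1 stood above both libraries of clone 2 and the LPS library of clone 3, so the groups overlapped. Within each clone the LPS value was the higher, but ISG15 barely moved in clone 2 (4.29 to 4.36 CPM). PARP9 (1.23 ± 0.20) and DTX3L (0.85 ± 0.19), which form a complex and are neighbours on chromosome 3, TRIM25 (0.92 ± 0.11), HERC6 (1.36 ± 0.23), PLSCR1 (0.98 ± 0.17), IFIH1 (1.89 ± 0.33), IRF7 (1.28 ± 0.26) and PARP14 (1.10 ± 0.22) were the others called. BST2 (0.09 ± 0.26), IFITM2 (0.08 ± 0.29) and IFI6 (0.39 ± 0.31) did not pass. No interferon-stimulated gene of the list was called by edgeR without pairing; 1, 21 and 6 were without clones 1, 2 and 3, where the list median was 0.52, 1.42 and 1.09. DESeq2 called 21 and limma voom 28. GBP2, a guanylate-binding protein, had 2.32, 3.61 and 2.28 CPM in the untreated libraries and 21.5, 14.2 and 18.4 CPM with LPS (log2 fold 2.72 ± 0.42, edgeR adjusted p = 0.002), while the other 4 members of its list did not pass. In a list of 14 interferon regulatory factor, STAT and JAK genes only JAK3 was called (0.66 ± 0.14, edgeR adjusted p = 0.0268), and IRF8 (0.38 ± 0.09, 0.0602) and STAT3 (0.20 ± 0.11, 0.694) were not.

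**Figure D3:**
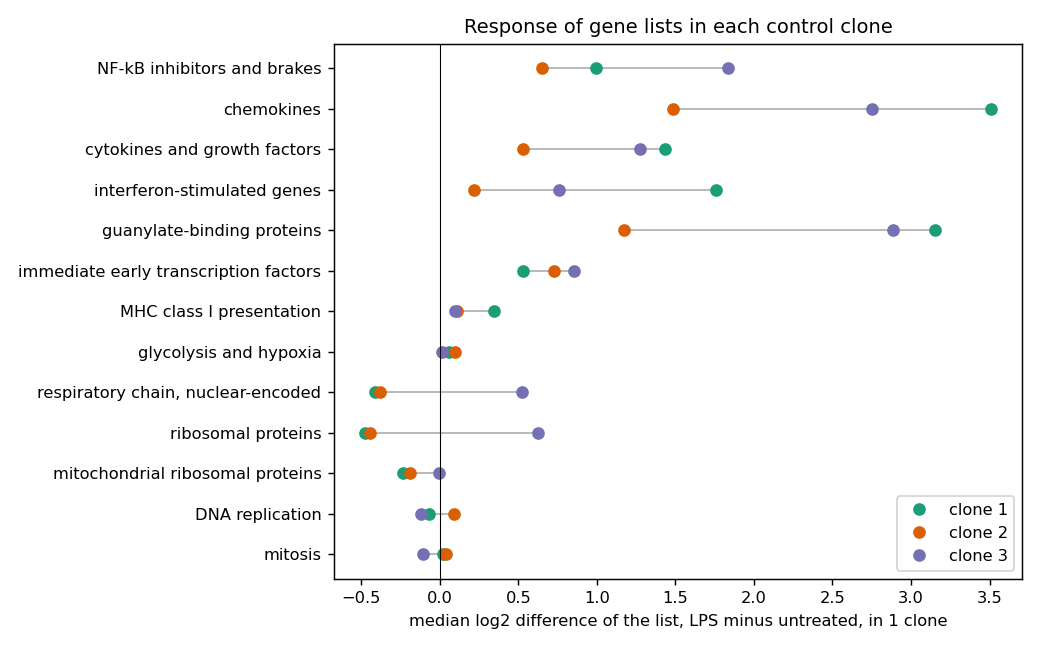
Median log2 difference between the LPS and the untreated library of each control clone (horizontal axis) for 13 gene lists, with 1 point a clone. Interferon-stimulated genes run from 0.22 in clone 2 to 1.76 in clone 1, while ribosomal protein and respiratory chain genes lie below 0 in clones 1 and 2 and above 0 in clone 3.

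Antigen presentation moved at single genes. HLA-E, the nonclassical class I molecule read by NK cells, stood at 176, 206 and 152 CPM untreated and 276, 279 and 221 CPM with LPS (log2 fold 0.54 ± 0.09, edgeR adjusted p = 0.00366). TAPBP, tapasin, which loads class I molecules, rose by 0.47 ± 0.11 (edgeR adjusted p = 0.0363), and the other 16 of 18 class I genes tested, B2M (0.07 ± 0.25) and CALR (−0.01 ± 0.06) among them, did not pass. Of 15 class II genes edgeR called 0, which beside 1.27% of all genes does not set so short a list apart. HLA-DRA stood at 50.7, 231 and 273 CPM untreated and 50.2, 248 and 262 CPM with LPS (log2 fold 0.01 ± 0.14, edgeR adjusted p = 0.999).

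Among 25 immediate early transcription factor genes 9 rose (36% against 1.27% of all genes). IER3 had 1.16, 5.697 and 1.43 CPM in the untreated libraries and 12.8, 52.9 and 25.1 CPM with LPS (log2 fold 3.56 ± 0.33, edgeR adjusted p = 2.23e-05). EGR1 stood at 1.35, 1.52 and 0.196 CPM untreated and 4.38, 13.02 and 8.21 CPM with LPS (log2 fold 3.05 ± 0.42, edgeR adjusted p = 0.000925), at a low level even with LPS. MXD1, the MAX partner that opposes MYC, stood at 27.1, 30.3 and 20.02 CPM untreated and 88.8, 61.2 and 52.4 CPM with LPS (log2 fold 1.37 ± 0.16, edgeR adjusted p = 0.000181). MYC itself had 333, 207 and 542 CPM in the untreated libraries and 479, 314 and 662 CPM with LPS (log2 fold 0.47 ± 0.09, edgeR adjusted p = 0.008), with overlapping groups. KLF6 (0.76 ± 0.10), EGR2 (2.49 ± 0.37), ATF3 (1.34 ± 0.25), BTG2 (1.23 ± 0.26) and BHLHE40 (0.57 ± 0.10) also rose. JUNB (1.44 ± 0.41), IER2 (0.76 ± 0.33) and KLF10 (0.43 ± 0.13) did not pass. The count for immediate early genes was 5 unpaired and 6, 7 and 7 without clones 1, 2 and 3. Of 37 myeloid transcription factors 4 rose (10.8%). They were PRDM1, the repressor Blimp-1 (1.68 ± 0.24), HIF1A, the oxygen-regulated factor (0.72 ± 0.12), ETS2 (0.72 ± 0.13) and HIVEP2 (1.25 ± 0.24). HIF1A stood at 80.6, 99.3 and 111 CPM untreated and 156, 154 and 168 CPM with LPS, without overlap (edgeR adjusted p = 0.00256). ZEB2 (−0.12 ± 0.08), ID2 (0.56 ± 0.13) and NFE2L2 (0.43 ± 0.12) did not pass. NR3C1, the glucocorticoid receptor gene, stood at 41.03, 49.5 and 45.9 CPM untreated and 71.6, 83.3 and 84.8 CPM with LPS (log2 fold 0.81 ± 0.12, edgeR adjusted p = 0.00144). Of 38 chromatin modifier genes edgeR called 0, with a median of −0.00081, and 0 of 409 numbered zinc finger genes, against 1.27% of all genes. At that share a 0 among 38 genes does not set the list apart.

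EAF1 and DCUN1D3, outside the lists, rose evenly. EAF1, a partner of the elongation factor ELL, had 105, 149.6 and 118 CPM in the untreated libraries and 221, 264 and 225 CPM with LPS (log2 fold 0.94 ± 0.09, edgeR adjusted p = 3.57e-05). DCUN1D3, a regulator of the neddylation of cullin ligases, stood at 18.6, 18.8 and 16.1 CPM untreated and 43.7, 46.3 and 45.7 CPM with LPS (log2 fold 1.35 ± 0.16, edgeR adjusted p = 0.000207). In both the 3 clones stood within a narrow band with LPS and no group overlapped.

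Surface molecules and receptors were raised selectively. ICAM1, the ligand of leukocyte integrins, stood at 83.9, 112 and 96.3 CPM untreated and 606, 373 and 868 CPM with LPS (log2 fold 2.59 ± 0.23, edgeR adjusted p = 0.000195). CD44, the hyaluronan receptor, had 426, 342 and 339 CPM in the untreated libraries and 918, 427 and 623 CPM with LPS (log2 fold 0.77 ± 0.12, edgeR adjusted p = 0.00182). The integrin genes ITGB2 (0.28 ± 0.08) and ITGA5 (0.06 ± 0.09) did not pass. Of 24 adhesion genes 2 were called (8.33% against 1.27% of all genes). Of 24 costimulatory and TNF receptor family genes 3 rose (12.5%), TNFRSF9 (2.91 ± 0.37), CD69 (1.15 ± 0.13) and CD83 (0.93 ± 0.11). Among 32 cytokine receptor genes 7 rose (21.9%). IL2RA, the alpha chain of the interleukin-2 receptor, went from 9 to 317 counts, a ratio of 32.9 (95% counting interval 17.1 to 72.7). IL15RA stood at 32.5, 19.9 and 24.98 CPM untreated and 119, 29.8 and 51.5 CPM with LPS (log2 fold 1.17 ± 0.21, edgeR adjusted p = 0.00657), with clone 2 overlapping the untreated level of clone 1. IL18RAP (2.22 ± 0.43), IFNGR2 (1.24 ± 0.26), CSF2RB (0.73 ± 0.14), IL4R (0.71 ± 0.12) and the shared gamma chain gene IL2RG (0.56 ± 0.12) were the others. Cytokine receptors called numbered 2 without pairing and 2, 5 and 0 without clones 1, 2 and 3. GPR84, a receptor of medium-chain fatty acids, stood at 33.5, 3.67 and 23.4 CPM untreated and 93.6, 18.99 and 114 CPM with LPS (log2 fold 2.02 ± 0.21, edgeR adjusted p = 6.93e-05), and C3AR1, that of the complement fragment C3a, had 13.2, 19.01 and 12.5 CPM in the untreated libraries and 126, 50.4 and 123 CPM with LPS (log2 fold 2.65 ± 0.38, edgeR adjusted p = 0.00575). FCAR, the IgA receptor, rose by 1.08 ± 0.13, NLRP3, the inflammasome sensor, by 0.98 ± 0.13, FCGR2B by 0.86 ± 0.16, with near-identical relatives that may share its reads, and CLEC4D by 4.02 ± 0.86. These were 4 of 37 Fc and pattern receptors (10.8%).

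Proteases, their inhibitors and matrix proteins supplied 7 raised genes of 39 (17.9% against 1.27% of all genes). SERPINB2, the plasminogen activator inhibitor of monocytes, stood at 113, 513 and 152 CPM untreated and 472, 1457 and 809 CPM with LPS (log2 fold 1.99 ± 0.19, edgeR adjusted p = 0.000207). Its target PLAU, urokinase, stood at 107, 55.3 and 134 CPM untreated and 179.5, 136 and 218 CPM with LPS (log2 fold 0.91 ± 0.13, edgeR adjusted p = 0.000727), and the urokinase receptor gene PLAUR rose by 0.98 ± 0.16 (edgeR adjusted p = 0.00674). MMP1, a collagenase, had 1.095, 122 and 33.7 CPM in the untreated libraries and 5.56, 391 and 286 CPM with LPS (log2 fold 2.36 ± 0.32, edgeR adjusted p = 0.00305). Its level differed between clones by far more than LPS changed it within a clone. MMP8 (2.10 ± 0.38), MMP9 (2.81 ± 0.64) and the complement gene C3 (1.36 ± 0.18) rose, and MMP13, outside the lists, went from 3 to 193 counts, a ratio of 60.1 (95% counting interval 20.3 to 294). MMP8 and MMP1 are neighbours on chromosome 11. PTX3, a soluble pattern receptor, rose by 2.91 ± 0.42 (edgeR adjusted p = 0.00133), TNFAIP6, a hyaluronan-binding protein, by 4.32 ± 0.84 (0.0401), and CHI3L1, a chitinase-like glycoprotein of macrophages, stood at 1246, 599.5 and 535 CPM untreated and 1875, 703 and 999 CPM with LPS (log2 fold 0.57 ± 0.10, edgeR adjusted p = 0.00887). The protease list had 2 called without pairing and 5, 7 and 4 without clones 1, 2 and 3.

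Of 31 glycolysis and hypoxia genes 5 rose (16.1% against 1.27% of all genes) and the median was 0.10. SLC2A3, the glucose transporter GLUT3, stood at 37.7, 55.6 and 44.5 CPM untreated and 128, 142 and 154 CPM with LPS (log2 fold 1.63 ± 0.15, edgeR adjusted p = 1.32e-05). SLC2A6, a lysosomal hexose transporter, had 1.67, 2.03 and 1.17 CPM in the untreated libraries and 16.8, 13.3 and 35.2 CPM with LPS (log2 fold 3.60 ± 0.42, edgeR adjusted p = 0.000178). PFKFB3, which makes the activator of phosphofructokinase, stood at 120.1, 127 and 119 CPM untreated and 175, 203 and 248 CPM with LPS (log2 fold 0.76 ± 0.12, edgeR adjusted p = 0.0024). HK2, hexokinase, rose by 0.40 ± 0.09 and ADM, adrenomedullin, by 1.32 ± 0.31 (edgeR adjusted p = 0.0268 and 0.0465). The glycolytic enzyme genes GAPDH (0.00 ± 0.16), ENO1 (0.03 ± 0.05) and ALDOA (0.07 ± 0.09) kept close to 0 and did not pass. Unpaired, 3 genes of this list were called, and 3, 3 and 2 without clones 1, 2 and 3.

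In the tricarboxylic acid cycle list 1 of 27 genes was called (3.70% against 1.27% of all genes), ACOD1, which makes itaconate from aconitate. ACOD1 was listed at 0 in the 3 untreated libraries and stood at 13.2, 1.04 and 0.919 CPM with LPS. Pooled over the group and set against a floor of 3 untreated counts, the ratio was 73.85, which is not a minimum for each clone. From counting error alone, the lower 95% limit of the ratio with 0 untreated counts was 59.6. Its level in clone 1 was more than 10 times that in clones 2 and 3, and it was not called when clone 1, 2 or 3 was left out (edgeR adjusted p = 0.6, 0.0546 and 0.0822) or without pairing (0.195). PDHA1 (0.08 ± 0.08), MDH1 (0.03 ± 0.12) and IDH3B (−0.02 ± 0.08) did not pass. Of 79 nuclear genes of the respiratory chain edgeR called 0; their median was −0.09, with −0.41, −0.38 and 0.52 in clones 1, 2 and 3. Of 13 mitochondrial messenger RNAs 0 were called, and their share of counts was 4.66 to 7.02% over the 6 libraries.

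Of 38 genes of amino acid, nucleotide and cofactor metabolism 6 rose (15.8% against 1.27% of all genes), and the list's median was 0.01, with 19 members above 0 and 19 below. KYNU, kynureninase of tryptophan breakdown, stood at 24.1, 73.4 and 40.5 CPM untreated and 170.2, 151 and 197 CPM with LPS (log2 fold 2.04 ± 0.28, edgeR adjusted p = 0.00291). NAMPT, the rate-limiting enzyme of NAD salvage, had 114, 179.5 and 132 CPM in the untreated libraries and 415, 326 and 489 CPM with LPS (log2 fold 1.54 ± 0.21, edgeR adjusted p = 0.00206). GCH1, which starts tetrahydrobiopterin synthesis, stood at 1.48, 2.48 and 1.5 CPM untreated and 14.1, 8.35 and 12.1 CPM with LPS (log2 fold 2.64 ± 0.46, edgeR adjusted p = 0.00543). IL4I1, a secreted amino acid oxidase chosen after its values were seen, stood at 16.9, 15.4 and 7.11 CPM untreated and 159, 36.1 and 47.1 CPM with LPS (log2 fold 2.40 ± 0.41, edgeR adjusted p = 0.0132). SAT1, the polyamine acetylase, rose by 0.87 ± 0.16, WARS, the tryptophanyl-tRNA synthetase, by 0.47 ± 0.10, and MTHFD2 of the mitochondrial folate cycle by 0.41 ± 0.09. QPRT, which turns the quinolinate of the kynurenine route into an NAD precursor, had 14.6, 41.01 and 15.1 CPM in the untreated libraries and 9.42, 31.5 and 8.098 CPM with LPS (log2 fold −0.62 ± 0.19, edgeR adjusted p = 0.184) and did not pass. The list's count of 6 became 2 without pairing and 2, 6 and 2 without clones 1, 2 and 3.

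ACSL1, which activates long-chain fatty acids, stood at 368, 232 and 347 CPM untreated and 1206, 439 and 1051 CPM with LPS (log2 fold 1.41 ± 0.15, edgeR adjusted p = 0.000322). NPC1, the cholesterol exporter of lysosomes, stood at 247, 387 and 415 CPM untreated and 501, 754 and 814 CPM with LPS (log2 fold 0.99 ± 0.09, edgeR adjusted p = 1.05e-05). It was the 1 called gene of 38 lysosomal genes (2.63% against 1.27% of all genes). The 3 clones raised NPC1 almost evenly, with log2 differences of 1.02, 0.96 and 0.97, although the unpaired fit did not call it (edgeR adjusted p = 0.858). Of 25 cholesterol genes 2 rose (8% against 1.27% of all genes), STARD4 (0.91 ± 0.16), a sterol carrier, among them. The synthesis enzymes FDPS (−0.05 ± 0.17), FDFT1 (0.05 ± 0.09) and EBP (−0.09 ± 0.24) did not pass. MFSD2A, a transporter of lysophospholipids, had 67.6, 90.2 and 78.3 CPM in the untreated libraries and 145, 146 and 235 CPM with LPS (log2 fold 1.13 ± 0.14, edgeR adjusted p = 0.000198). ALAS1, the rate-limiting enzyme of heme synthesis, stood at 243, 319 and 248 CPM untreated and 372, 461 and 452 CPM with LPS (log2 fold 0.67 ± 0.09, edgeR adjusted p = 0.000322). Of 223 solute carrier genes 5 rose (2.24% against 1.27% of all genes), so the list itself is not read as raised. They were SLC2A3, SLC2A6, SLC11A2, an iron transporter (0.54 ± 0.12), SLC25A40 (0.52 ± 0.11) and SLC43A2, an amino acid transporter (1.34 ± 0.31). The iron storage genes FTL (−0.04 ± 0.35) and FTH1 (1.22 ± 0.39, edgeR adjusted p = 0.345) did not pass. AQP9, a glycerol and water channel chosen after its values were seen, rose by 3.41 ± 0.72 (edgeR adjusted p = 0.0367), with clone 1 highest at 41.4 CPM.

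**Figure D4:**
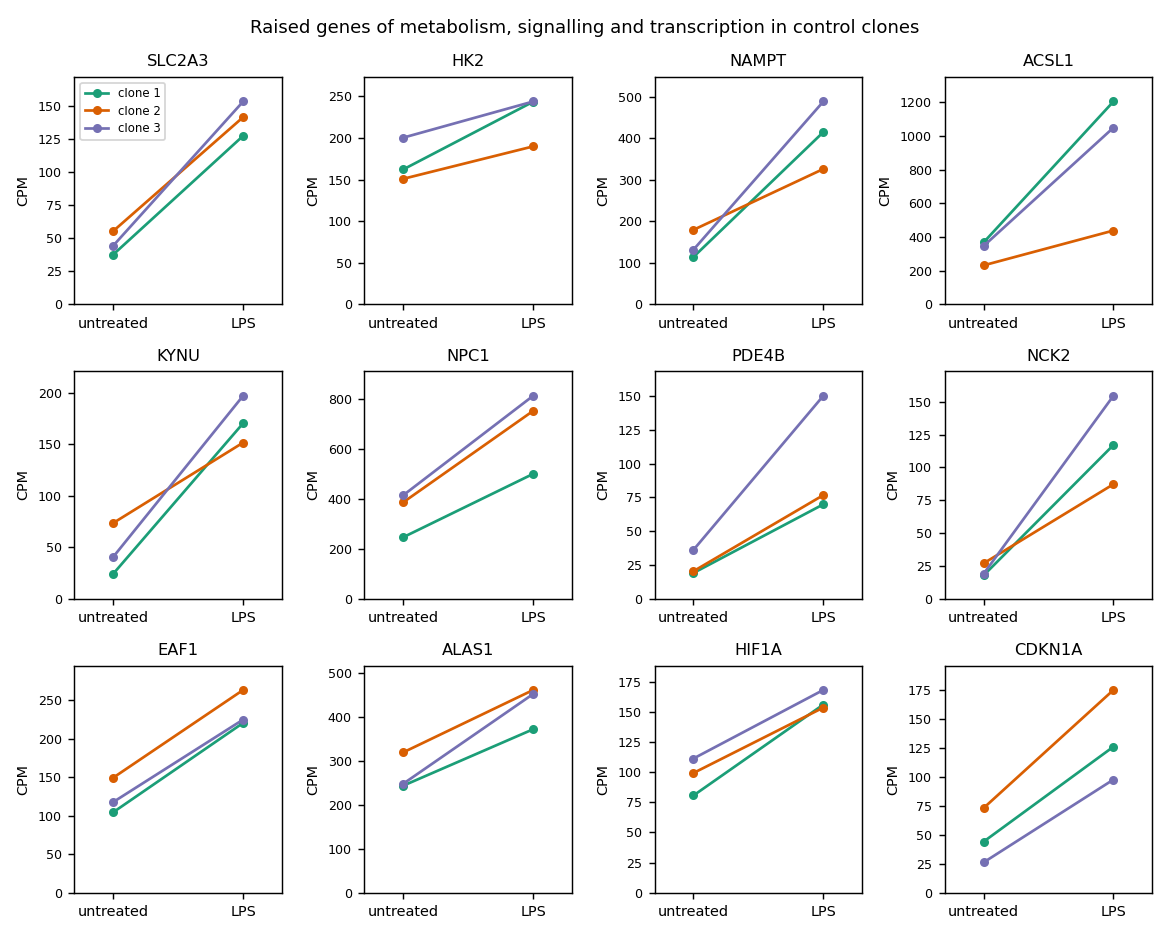
CPM (vertical axes, from 0) of 12 raised genes of metabolism, signalling and transcription in the untreated and LPS library of each control clone, joined by a line per clone. Each line rises; the 3 lines of EAF1 are near parallel, and clone 2 has the flattest line for ACSL1 and NAMPT.

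Oxidative genes were led by SOD2, the mitochondrial superoxide dismutase, which stood at 81.7, 182 and 96.4 CPM untreated and 831, 857 and 1684 CPM with LPS (log2 fold 3.23 ± 0.34, edgeR adjusted p = 0.00157). NCF1 (1.42 ± 0.20), a cytosolic subunit of the phagocyte oxidase, rose too, together with its near copy NCF1C (1.46 ± 0.30), while PRDX1 (0.03 ± 0.30), PRDX4 (−0.17 ± 0.24) and SOD1 (−0.18 ± 0.29) did not pass. SQSTM1, the autophagy receptor p62, had 831, 1025 and 640.4 CPM in the untreated libraries and 1604, 1332 and 1297 CPM with LPS (log2 fold 0.78 ± 0.11, edgeR adjusted p = 0.00163). OPTN (1.42 ± 0.23) and DRAM1 (0.99 ± 0.14) rose with it out of 33 autophagy genes (9.09% called against 1.27% of all genes). In the stress response list only PPP1R15A of 22 was called (0.68 ± 0.09), while HSPA5 (0.12 ± 0.06) and ATF4 (0.14 ± 0.09) did not pass. That is 4.55% of the list against 1.27% of all genes. edgeR called 0 of 22 heat shock genes, too few for a 0 to set them apart.

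Of 33 survival and apoptosis genes 4 rose (12.1% against 1.27% of all genes), with 11 members below 0. Of 28 cell cycle inhibitors and p53 targets 3 rose (10.7%), with 9 below 0. Without pairing edgeR called 3 and 0. PIM1, a survival kinase, stood at 329, 322 and 224 CPM untreated and 1249, 1191 and 2045 CPM with LPS (log2 fold 2.33 ± 0.31, edgeR adjusted p = 0.00603). PIM2 (1.49 ± 0.17), MCL1 (0.76 ± 0.14), a BCL2 relative, and CFLAR (0.83 ± 0.16), an inhibitor of caspase-8, were the other called survival genes, and BCL2A1 (0.38 ± 0.32) did not pass. CDKN1A, the inhibitor p21, stood at 44.2, 73.3 and 26.3 CPM untreated and 126, 175 and 97.9 CPM with LPS (log2 fold 1.55 ± 0.20, edgeR adjusted p = 0.00109). CDKN2B, the inhibitor p15, rose by 1.81 ± 0.27 and PMAIP1, the BH3 protein NOXA, by 0.92 ± 0.14 (edgeR adjusted p = 0.00133 and 0.00212). Of 41 DNA replication genes and 39 mitosis genes edgeR called 0, with medians of −0.02 and −0.03. Beside 1.27% of all genes, a 0 in lists of this size does not set them apart. PCNA (−0.09 ± 0.14), RRM2 (0.17 ± 0.05), CCNB1 (−0.04 ± 0.07) and CDC20 (−0.06 ± 0.08) stood close to 0.

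Of 45 actin and small GTPase genes 5 rose (11.1% against 1.27% of all genes), with 13 members below 0 and a median of 0.11. Adaptor genes outside the list are given with them. PLEK, pleckstrin, a protein kinase C substrate of blood cells, had 1529, 1222 and 1186 CPM in the untreated libraries and 2955, 1741 and 2593 CPM with LPS (log2 fold 0.86 ± 0.09, edgeR adjusted p = 0.000153). LCP1, the actin bundler L-plastin, stood at 1929, 1471 and 2066 CPM untreated and 2565, 1798 and 2738 CPM with LPS (log2 fold 0.37 ± 0.06, edgeR adjusted p = 0.00182), with overlapping groups. NCK2, an adaptor between receptors and actin, stood at 17.6, 26.8 and 18.8 CPM untreated and 117, 87.2 and 155 CPM with LPS (log2 fold 2.49 ± 0.24, edgeR adjusted p = 4.53e-05). PLEKHO2 (0.96 ± 0.11), LPXN (0.40 ± 0.07), EHD1 (0.81 ± 0.13), ARHGAP31 (1.08 ± 0.20), RHOH (0.80 ± 0.17) and CDC42EP3 (0.63 ± 0.14) rose, and ACTB (0.08 ± 0.06) and ACTG1 (0.03 ± 0.06) did not pass. Unpaired, edgeR called 0 of the 45. SDC4 (0.78 ± 0.11), a heparan sulfate proteoglycan, UXS1 (0.51 ± 0.08), which makes the sugar that starts such chains, DDIT4 (0.90 ± 0.13), an inhibitor of mTORC1, VMP1 (0.54 ± 0.08), NABP1 (0.70 ± 0.10) and TRGC1 (1.03 ± 0.14), which shares sequence with TRGC2, complete the 20 raised genes of lowest adjusted p outside the lists.

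The 11 lowered genes share no list: P2RY8 alone stood in one. AC207130.1, a long intergenic RNA gene on chromosome 22 from 49372924 to 49377119 (GRCh38, GENCODE release 29), had 56.1, 45.1 and 91.2 CPM in the untreated libraries and 29.8, 25.7 and 36.2 CPM with LPS (log2 fold −1.02 ± 0.13, edgeR adjusted p = 0.000419). P2RY8, a G protein-coupled receptor known for confining B cells, stood at 234, 81.4 and 236 CPM untreated and 189.8, 48.2 and 177 CPM with LPS (log2 fold −0.49 ± 0.09, edgeR adjusted p = 0.0126). ACSS1, the mitochondrial acetyl-CoA synthetase, stood at 43.2, 40.2 and 29.5 CPM untreated and 21.5, 29.1 and 19.01 CPM with LPS (log2 fold −0.70 ± 0.15, edgeR adjusted p = 0.0222). The groups of AC207130.1 and ACSS1 did not overlap, whereas clone 2 started P2RY8 below the LPS level of the others. ESYT3, an extended synaptotagmin of membrane contact sites, had 11.7, 9.701 and 13.4 CPM in the untreated libraries and 5.82, 4.62 and 4.02 CPM with LPS (log2 fold −1.27 ± 0.27, edgeR adjusted p = 0.0244). LRMP, an endoplasmic reticulum protein that binds inositol trisphosphate receptors, stood at 15.7, 6.09 and 6.91 CPM untreated and 6.22, 1.61 and 3.503 CPM with LPS (log2 fold −1.39 ± 0.31, edgeR adjusted p = 0.0338). DHRS9, a retinol dehydrogenase, stood at 15.7, 8.91 and 8.28 CPM untreated and 12.2, 3.74 and 3.85 CPM with LPS (log2 fold −0.89 ± 0.20, edgeR adjusted p = 0.0336). ESYT3, LRMP and AC207130.1 are the 3 that fell by over 2-fold. CAB39L, a scaffold of the kinase LKB1, had 62.2, 148 and 123 CPM in the untreated libraries and 39.7, 136 and 75.2 CPM with LPS (log2 fold −0.49 ± 0.11, edgeR adjusted p = 0.0276). MEMO1, a mediator of cell motility, stood at 136, 81.95 and 127 CPM untreated and 99.6, 71.7 and 87.1 CPM with LPS (log2 fold −0.39 ± 0.09, edgeR adjusted p = 0.0437). NHSL2, a relative of the Nance-Horan syndrome protein, stood at 148, 89.8 and 123 CPM untreated and 111, 68.9 and 68.6 CPM with LPS (log2 fold −0.54 ± 0.11, edgeR adjusted p = 0.0129). The groups of these 3 genes overlapped, although each clone fell. THEM6 had 112, 50.99 and 114 CPM in the untreated libraries and 73.02, 42.3 and 56.6 CPM with LPS (log2 fold −0.63 ± 0.15, edgeR adjusted p = 0.0435). AC079466.1, a long intergenic RNA gene that overlaps genes of the opposite strand on chromosome 19, stood at 83.5, 43.9 and 53.03 CPM untreated and 67.2, 24.9 and 34.3 CPM with LPS (log2 fold −0.58 ± 0.12, edgeR adjusted p = 0.0222).

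**Figure D5:**
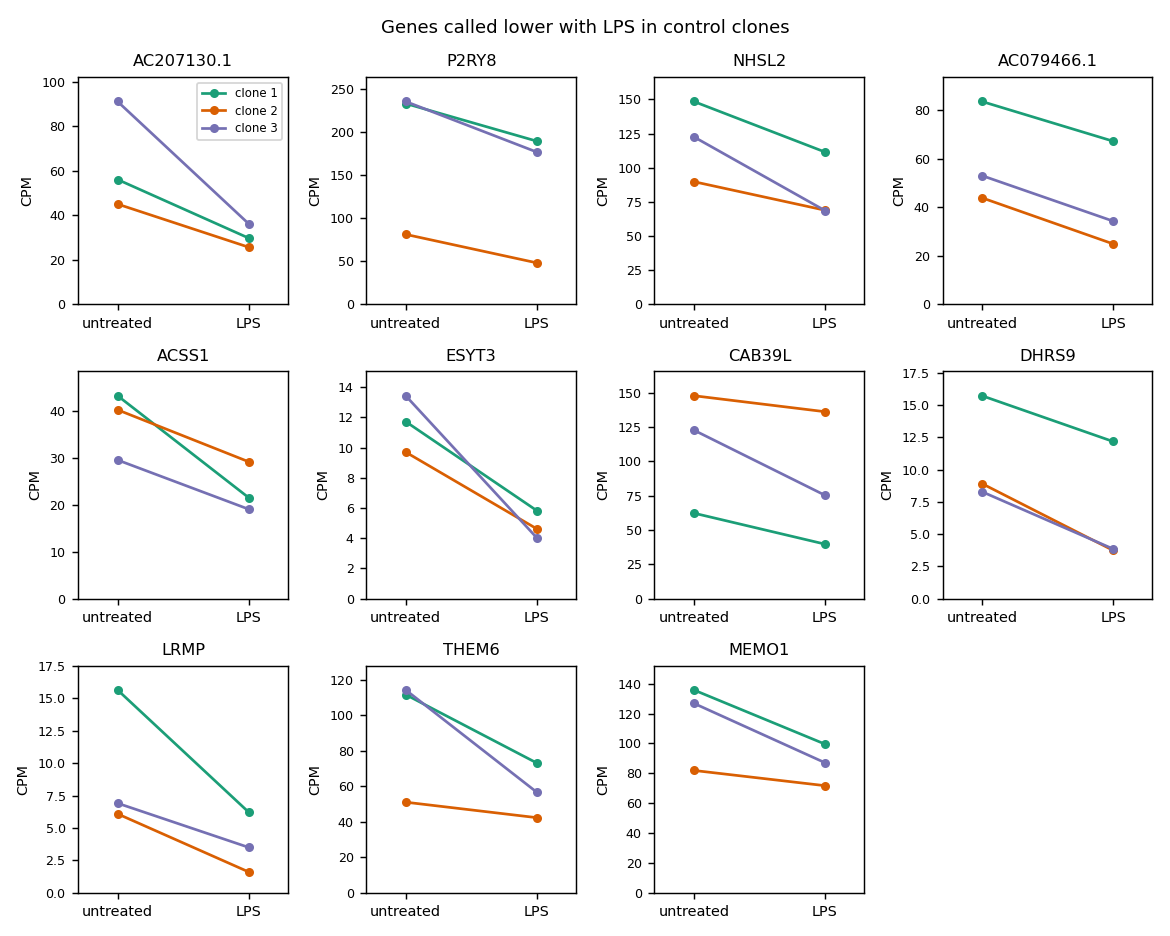
CPM (vertical axes, from 0) of the 11 genes called lower with LPS, in the untreated and LPS library of each control clone, joined by a line per clone. Each of the 33 lines falls, and only AC207130.1, ACSS1 and ESYT3 have LPS values all below the untreated ones.

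Only AC207130.1 of the 11 was called without pairing (edgeR adjusted p = 0.023; 0.13 to 1.0 for the others), and it alone of the 11 was called without clone 1 (0.00562), clone 2 (0.00176) and clone 3 (0.0163) in turn. P2RY8 held without clone 1 (0.0279) and not without clone 2 (0.133) or 3 (0.0785), ACSS1, NHSL2, CAB39L, MEMO1 and THEM6 held only without clone 2, DHRS9 and AC079466.1 only without clone 1, and ESYT3 and LRMP in none of the 3. With the 6 control libraries alone edgeR called 1 lower gene, and with batch C alone 0 lower and 55 higher.

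Below the threshold, 65 further genes had at least 10 CPM untreated, were lower in 3 of 3 clones and had an unadjusted p under 0.01, against 224 by the mirror rule among higher genes. The largest falls among them were BBS1 of the ciliary BBSome (−0.93 ± 0.26, edgeR adjusted p = 0.132), ARHGAP8 (−0.91 ± 0.27, 0.164) and AL365199.1 (−0.83 ± 0.24, 0.157). CD244, the receptor 2B4 (−0.75 ± 0.18, 0.0602), AKAP1, the mitochondrial anchor of protein kinase A (−0.59 ± 0.14, 0.0547), HES6 (−0.75 ± 0.23, 0.199) and GALT of galactose use (−0.56 ± 0.17, 0.177) were others. AKAP1 stood at 40.4, 29.4 and 34.05 CPM untreated and 22.3, 19.1 and 27.5 CPM with LPS, without overlap. None of these passed and no change is claimed for them.

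The lists of translation and granule genes below held no called gene, against 1.27% of all genes. WARS, the raised tRNA synthetase gene, stood in the amino acid list and not in that of the synthetases. Of 82 ribosomal protein genes, 81 had a fold below 0, with a median of −0.11, and edgeR called 0. The sign differed between clones: the median was −0.47, −0.45 and 0.62 in clones 1, 2 and 3, and 0.07, 0.03 and −0.47 with each left out of the fit. Of 78 mitochondrial ribosomal protein genes 68 lay below 0 (median −0.11; −0.23, −0.19 and −0.01 by clone) and of 40 ribosome biogenesis genes 31 (median −0.08). Proteasome (46 genes), splicing (55), tRNA synthetase (19) and histone genes (41) had medians from −0.06 to −0.01, with 0 called by edgeR. Of 16 promyelocyte granule protein genes 12 lay below 0 (median −0.17) and 0 were called; ELANE had 1311, 486 and 1005 CPM in the untreated libraries and 1139, 413 and 1092 CPM with LPS (log2 fold −0.11 ± 0.31, edgeR adjusted p = 0.99). Of 14 S100 and annexin genes 0 were called, and of 25 hosts of small nucleolar RNAs 0, GAS5 (−0.05 ± 0.09) among them.

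Some raised genes are neighbours. Within 100 kb of another raised gene stood 28 of the 225 (12.4%), against 4.95% of all genes tested, in 12 groups. The 4 chemokine genes CCL3, CCL4, CCL3L1 and CCL4L2 span chromosome 17 from 36088256 to 36212878 (GRCh38), IL15RA, IL2RA and PFKFB3 chromosome 10 from 5943639 to 6254644, and PPP1R18, FLOT1 and IER3 chromosome 6 from 30676389 to 30744554. ADM and AMPD3 adjoin on chromosome 11, and FCAR with the long noncoding AC245128.3 on chromosome 19. Near-identical copies add to such counts, and 112 of the 236 called genes overlap another gene of the opposite strand in the annotation, whose reads cannot be told apart without strand.

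The size of the response differed by clone. The median log2 difference of the 225 raised genes was 1.16, 0.78 and 1.18 in clones 1, 2 and 3. Clone 2 had the smallest of the 3 rises for 159 genes and clone 3 the largest for 133. The 11 lowered genes had medians of −0.61, −0.75 and −0.84. Clone 2 is the one control clone of batch B, and the part of batch was not tested.

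Against the knockouts, the response of control clones was compared with the mean of the 5 responses labelled as knockouts in the same fit, the library pair labelled p65 replicate 1 included. Control clones 1 and 3 belong to batch C, and of the knockouts only p65 replicates 2 and 3 do. A difference in LPS response between genotypes and one between batches therefore cannot be fully told apart here, and the part of batch was not tested. edgeR called 13 of 18624 genes (0.0698%), 12 of them with a larger rise in CTR. SLC2A3 rose by 1.63 ± 0.15 in CTR against a mean of 0.27 in the knockouts, a difference of 1.37 ± 0.16 (SE; edgeR adjusted p = 0.0062). NPC1 differed by 0.74 ± 0.10 (SE; edgeR adjusted p = 0.00872). GBP2 had a mean of −0.10 in the knockouts, a difference of 2.81 ± 0.47 (SE; edgeR adjusted p = 0.0462). IL1B and PTGS2 differed by 2.18 ± 0.29 and 3.14 ± 0.49 (SE; edgeR adjusted p = 0.036 each). AC207130.1 fell further in CTR, by −1.02 against −0.16 (difference −0.86 ± 0.15, SE; edgeR adjusted p = 0.0462). By genotype, the fitted response of PDE4B was 1.13 in p50, 1.02 in p52, −0.24 in p65, 0.33 in cREL and 1.94 in RELB, against 1.95 ± 0.16 in CTR, and that of EAF1 0.08, 0.36, 0.11, 0.24 and 0.93 against 0.94 ± 0.09; the single genotypes were not tested against CTR here. edgeR called 0 such genes without pairing (613 at an unadjusted p under 0.05), 0 without control clone 1 (827) or 3 (1167), 53 without clone 2 and 5 without p65 replicate 1.

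A second readout, the effective length that the authors supply per gene and library, was compared in the same paired design with limma. Of 12259 genes with enough counts 0 were called, the lowest limma adjusted p was 0.331, and 538 (4.39%) had an unadjusted p under 0.05. Among the 206 raised genes measured there, 8 had an unadjusted p under 0.05. A change of the transcripts behind a gene was not detected with this measure in 3 clones, and without clone 2 it called 1 gene.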

How the data were processed

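RNA was reverse transcribed from its poly(A) tail, amplified, and made into Nextera XT libraries read in pairs, per the labels' protocols; these carry neither strand nor molecular identifiers, so intervals cover counting error only. Per the submitters' processing notes, FastQC 0.11.7, Salmon 0.11.3 and build GRCh38 were used; what annotation release and options went with them is not given in the sources used here. The deposited tables hold estimated counts, TPM values and effective lengths per gene symbol, made by the authors. All 56809 symbols were found in GENCODE release 29, which gave positions and gene types. Estimated counts (43.3 to 47.5% of them whole) were rounded before testing.

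Genes were kept with edgeR's filterByExpr over all 28 libraries grouped by genotype and treatment (minimum count 10, minimum total 15), leaving 18624. A gene could pass through the knockout libraries alone. Counts were scaled by TMM. The quasi-likelihood test of edgeR 4.0.16 (R 4.3.3) was fitted to all 28 libraries with a term for each of the 14 clones and an LPS term for each genotype (8 residual degrees of freedom, biological coefficient of variation 21.0%), with Benjamini-Hochberg adjustment. The pairing comes from the design, since both libraries of a number are 1 clone. Deviations from the group means correlated at 0.226 to 0.441 between libraries of the same control clone and at −0.316 to −0.0199 between different clones. The deviations of a gene sum to 0 over the 3 clones of a group, so the negative values add nothing to the positive ones. P-values measure the spread of the response between clones, each sequenced once per treatment. Effective lengths were tested on the log2 scale with limma 3.58.1. DESeq2 1.42.0, limma voom, other scalings, filters and designs, and each clone left out, were alternatives; leaving out p65 replicate 1 was added after seeing the data. The tests were tried on simulated data first.

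The comparison and the gene lists were chosen with earlier results of these data known. The promoters printed were chosen among raised genes whose window holds the NF-kB consensus. Genes were named by rule: the 15 largest rises, the 10 most abundant raised genes, every lowered gene and 15 falls that did not pass, up to 5 called and 3 uncalled members per list, and the 20 of lowest adjusted p outside the lists. The remaining called members of lists, and NCF1C, LPXN, CHI3L1, IL4I1, AQP9, MAP3K14, and the pairs of neighbouring genes, were named after their values were seen. List medians did not change when the 1 gene without untreated counts in each of 6 lists was set to its ratio against a floor of 3 counts. Some results are not reported here.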

Additional observations from a re-analysis of the deposited data

Results flagged for a closer look

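For 13 genes the LPS response of the control clones differed from the mean of the 5 knockout responses by a test of the difference itself (edgeR's quasi-likelihood test on 18624 genes, Benjamini-Hochberg adjusted p from 0.0062 to 0.0462). On the log2 scale, as CTR minus knockouts, the glucose transporter gene SLC2A3 differed by 1.37 and its relative SLC2A6 by 2.68. NPC1 of lysosomal cholesterol export differed by 0.74 and the fatty acid enzyme gene ACSL1 by 1.11. The phosphodiesterase gene PDE4B differed by 1.11, the adaptor genes NCK2 and PIK3AP1 by 1.61 and 0.74, MXD1 by 1.04 and EAF1 by 0.60. Among inflammatory genes IL1B differed by 2.18, PTGS2 by 3.14 and GBP2 by 2.81. AC207130.1, a noncoding gene, differed by −0.86, since it fell further in CTR. By clone, the log2 difference of NPC1 ran from 0.96 to 1.02 over the 3 control clones and from −0.01 to 0.84 over the 11 clones labelled as knockouts, which include p65 replicate 1, whose RELA level goes against its label. The genotypes behind the mean had unlike values: the fitted RELB response lay within the range of the control clones for IL1B (4.99, control clones 4.65 to 5.71), PTGS2 (4.19, 3.92 to 5.54), PDE4B (1.94, 1.87 to 2.06), MXD1 (1.27, 1.01 to 1.71) and EAF1 (0.93, 0.82 to 1.08). The single genotypes were not tested against CTR. Batches are spread unevenly over control and knockout clones, and the part of batch in these differences was not tested.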

How the results depend on the processing

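The paired fit called 236 genes (225 higher, 11 lower). Without the replicate block the counts were 76 (75 and 1) with a batch term and 50 (50 and 0) without one. With the 6 control libraries alone they were 128 (127 and 1) and with batch C alone 55 (55 and 0). DESeq2 called 373 (345 and 28), edgeR with no filter on low counts 421 (374 and 47), and the effective length offset left 4 lower genes. Leaving out 1 control clone gave 99 to 230 genes, 97 to 217 higher and 1 to 13 lower.

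The 13 differences from the knockouts were 0 in edgeR without the replicate block, with or without a batch term (613 and 454 genes at an unadjusted p under 0.05). They numbered 111 by DESeq2, 33 by limma voom, 7 with the length offset, 189 with no filter, 0 to 53 with 1 control clone left out and 5 without p65 replicate 1. Effective length gave 0 to 1 genes with 1 clone left out. The cause of these shifts was not tested.

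Of 6239 values of named genes under the alternatives, 5019 kept their side of the threshold, 1157 lost it and 63 gained it. Folds near 0 could change sign. The median of the nuclear respiratory chain genes was −0.09 in the main fit and 0.06 without control clone 1. Of 840 list counts 603 stayed within 1.5 times. Depth, the small number of clones and low untreated counts limit what could be detected.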
